A study of Mus musculus with 15 samples.

Results

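Autophagy and damaged-lysosome response genes were a set of 32 mouse genes, chosen by symbol from the 78317 gene identifiers of the count table. Each symbol matched 1 identifier, and all 32 genes were tested. By role, they comprised 4 genes of the ATG8 family, 3 of the ULK1 initiation complex, 7 of the class III phosphatidylinositol 3-kinase (PI3K) complex and its regulators, 5 for membrane supply and binding of phosphatidylinositol 3-phosphate (PI3P), 6 for ATG8 conjugation, 5 cargo receptors and 2 galectins.

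The libraries came from MH-S cells, a mouse alveolar macrophage line transformed with SV40, in 5 groups of 3 wells each. After 24 h, M0 cells had received medium only, M1 cells LPS (1 µg/mL) together with IFN-γ (20 ng/mL), and M2 cells IL-4 alone (20 ng/mL). The CaP and SiO2 groups had received microrods at 0.1 mg/mL, built from calcium phosphate or silica nanoparticles and, in both cases, the polymers alginate, protamine and carboxymethyl chitosan. Every microrod well held a separately made particle batch, all wells held serum-containing RPMI, and all cells were of 1 line at 1 passage, so the p-values measure the spread between wells and particle batches only. M1 and M2 served as reference states, and the 2 microrod groups were compared with M0 and with each other to ask how gene expression differs between them. The rods were dosed by mass, and the authors state that, with their different densities, equal mg/mL held unequal numbers of rods. Particle material and rods per cell therefore cannot be told apart between CaP and SiO2.

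Macroautophagy encloses cytoplasmic cargo in a double membrane that grows from a cup-shaped precursor and then fuses with lysosomes. The ULK1 complex starts the process, the class III PI3K complex marks the membrane with PI3P, and linked conjugation reactions attach ATG8 proteins such as LC3 to it. Macrophages also use this machinery on lysosomes torn by ingested particles, where cytosolic galectins bind the exposed sugars and cargo receptors such as p62 link ubiquitin-coated remnants to LC3.

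Total counts ranged from 8459643 to 68750050 per library, and 0.888% to 2.18% of them were mitochondrial. The summed level of 10 macrophage markers was 1356 to 3481 CPM (counts divided by the TMM-scaled size of the library), with its lowest values in M2, whereas those of 5 epithelial, 5 fibroblast and 5 lymphocyte markers reached at most 0.116, 0.232 and 0.430 CPM. The alveolar macrophage markers Siglecf, Chil3, Marco and Mertk were themselves near 0, with at most 35 counts in any library. The stimulus markers separated the groups as labelled. Il1b averaged 411 CPM in M1 and 1.07 CPM in M0, Arg1 1550 CPM in M2, beside 8.46 to 14.7 CPM in M0, Clec10a 196 and 15.7 CPM in M2 and M0, and Ccl24 22.7 and 0.849 CPM. Nos2 and Il6 reached 4.13 to 8.46 CPM and 45.5 to 55.0 CPM in M1, beside 0 counts of Nos2 and at most 0.0527 CPM of Il6 in M0. In M1 against M0 all 6 markers were DEGs by edgeR, 4 higher and 2 lower, beside 14.1% of all genes. The M2 markers Arg1, Clec10a and Ccl24 thus did not all move the same way in M1. M0 replicate 3, M2 replicate 2 and SiO2 replicate 2 stood apart from the other libraries on the second principal component (-42.7, -43.9 and -21.7). Each was the shallowest library of its group, with 8459643, 8594947 and 12646926 counts. M1 replicate 3 had 10117846 counts and lay at 4.29 on this component. The part of depth in this position was not tested. DEG calls of the autophagy and damaged-lysosome response genes were also computed without the libraries that stood apart. Calls of the stimulus markers, and of the genes from other steps of the pathway, were computed only with them.

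The 32 genes covered a wide range of expression in these cells. Divided by transcript length, Lgals3, which encodes the sugar-binding protein galectin-3, had the highest level with 1005 CPM per kb over all libraries. Map1lc3b, which encodes the LC3B protein that coats autophagosomes, followed with 290 CPM per kb, Gabarap, another ATG8 gene, with 106 and Sqstm1, which encodes p62, with 105 CPM per kb. The lowest level was 0.290 CPM per kb for the cargo receptor gene Optn. Within the ATG8 family the order was Map1lc3b, Gabarap, Gabarapl2 (44.6 CPM per kb) and Gabarapl1 (35.6 CPM per kb). All 3 genes of the ULK1 complex were low, namely Atg13, an adaptor subunit, at 8.47, Rb1cc1, the scaffold FIP200, at 0.689 and Ulk1, the kinase, at 0.463 CPM per kb. Not divided by length, 5 genes averaged above 100 CPM, 15 lay between 10 and 100 CPM and 12 under 10 CPM. The smallest count of any of them in any library was 4, in Optn. Of the low genes, Atg9a and Optn spread most within groups (SDs of 0.96 and 0.83 log2 units), whereas Ulk1 had an SD of 0.29.

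**Figure D1:**
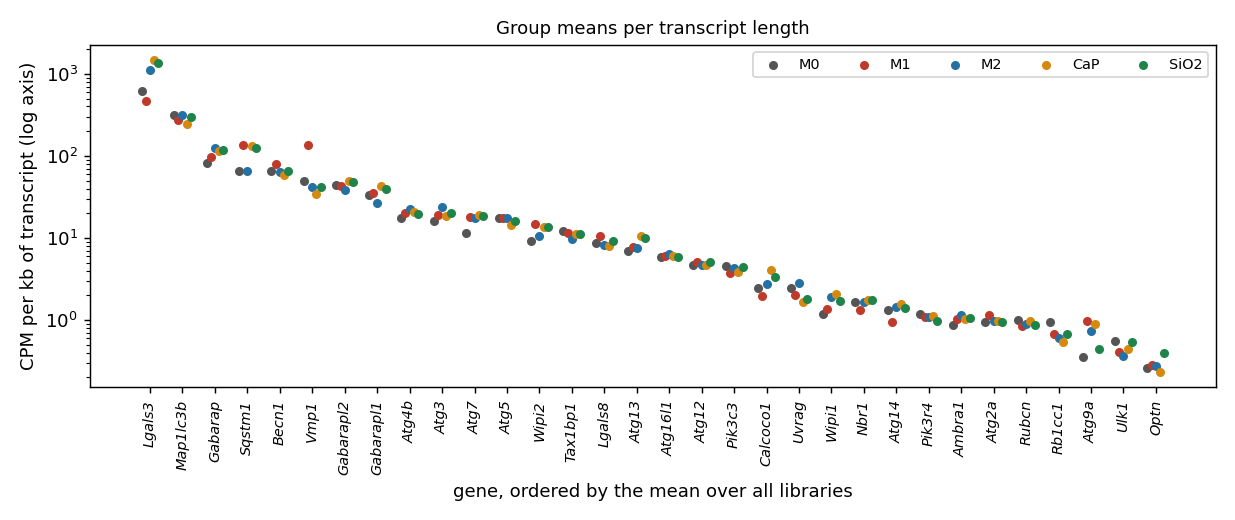
Group means of the 32 genes in CPM per kb of transcript, on a log axis, ordered by the mean over all libraries. Each point is the mean of 3 libraries of a group, without error bars, and the points of most genes lie close together, with those of Lgals3, Sqstm1, Vmp1, Atg9a and Calcoco1 more widely spread.

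Among the 32 genes, 1 was a differentially expressed gene (DEG; edgeR adjusted p below 0.05, with a log2 fold change beyond 0.5 in either direction) in cells with CaP microrods, namely Lgals3, which rose. Of all 16621 genes tested in this comparison, 0.409% were DEGs, and 0.289% were DEGs that rose. With SiO2 microrods 0 of the 32 were DEGs by edgeR, beside 0.0602% of all genes, although 6 had an unadjusted p below 0.05 (9.27% of all genes) and DESeq2 called 1, again Lgals3 (0.708% of all genes). DESeq2, which called 3.87% of all genes in CaP against M0, called 3 of the 32 there, Lgals3 and Sqstm1 higher and Rb1cc1 lower. The median log2 fold change of the 32 genes was 0.06 in CaP and 0.12 in SiO2, and that of all genes tested was 0.06 and -0.02. In bulk RNA, fewer cells of a type and less RNA per cell cannot be told apart.

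Lgals3 was measured at 564, 1037 and 819 CPM in the M0 libraries, at 1687, 1828 and 2185 CPM with CaP and at 1775, 1771 and 1705 CPM with SiO2 microrods. All 6 microrod libraries lay above all 3 M0 libraries, and the SiO2 libraries were nearly alike. The means were 806 ± 237 CPM in M0, 1900 ± 257 CPM with CaP and 1750 ± 39.2 CPM with SiO2 (SD, n = 3). The log2 fold change over M0 was 1.24 for CaP (SE 0.21, 95% interval 0.77 to 1.71), with an adjusted p of 0.0475 by edgeR and 1.77e-04 by DESeq2. For SiO2 it was 1.12 (SE 0.21, 95% interval 0.65 to 1.59), with an adjusted p of 0.126 by edgeR and 0.00278 by DESeq2. The edgeR call for CaP was close to the threshold. It was lost without M0 replicate 1 (adjusted p = 0.0883), M0 replicate 3 (0.158), CaP replicate 2 (0.121) or CaP replicate 3 (0.257), and without the 3 libraries that stood apart (0.220), while the log2 fold change stayed between 1.01 and 1.46 over 15 alternative settings.

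Sqstm1 encodes p62, a receptor that carries ubiquitin-marked cargo into autophagosomes and is itself degraded there. Its level was 90.9, 167 and 148 CPM in M0, 173, 288 and 341 CPM with CaP, and 280, 262 and 223 CPM with SiO2 microrods. Each microrod library lay above each M0 library, but the lowest CaP value, that of replicate 1, was only slightly above the highest M0 value. The log2 fold change over M0 was 0.99 for CaP (SE 0.28) and 0.92 for SiO2 (SE 0.28), with adjusted p-values by edgeR of 0.141 and 0.387, so neither passed. DESeq2 gave 0.0499 for CaP, just past the threshold. Without CaP replicate 1, edgeR called Sqstm1 as well as Atg13, Atg9a, Lgals3, Rb1cc1 and Wipi1 in CaP against M0, 6 genes in all, beside 743 of all genes tested instead of 68.

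**Figure D2:**
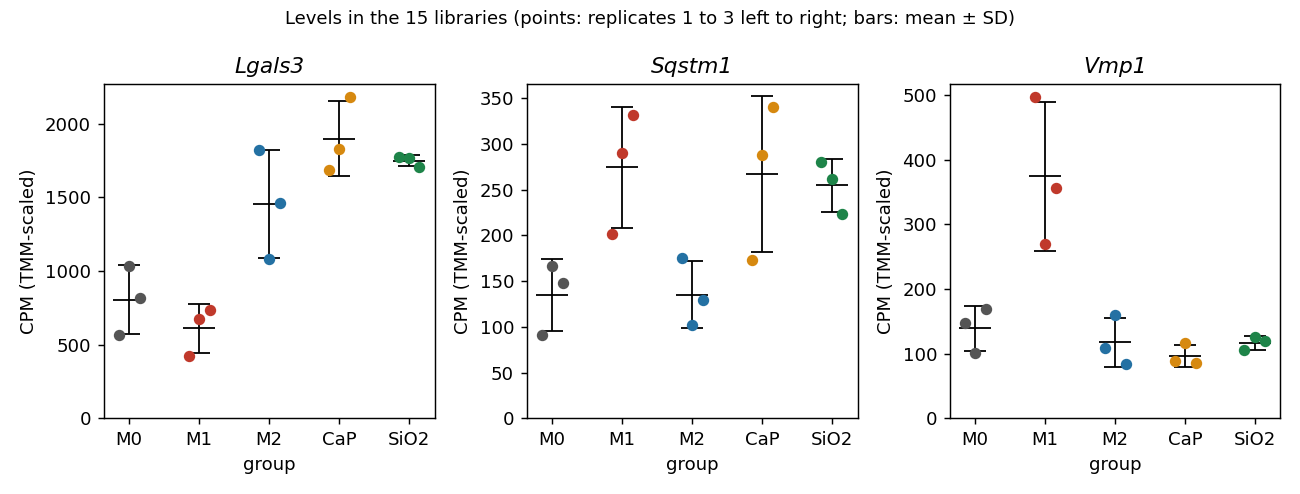
Levels of Lgals3, Sqstm1 and Vmp1, in CPM, in each of the 15 libraries; points are replicates 1 to 3 from left to right, and bars give the mean ± SD of a group. Lgals3 was above M0 in all microrod and M2 libraries, Sqstm1 in all M1 and microrod libraries, and Vmp1 in the M1 libraries.

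The 250 bases upstream of the transcription start of the 3 genes that were DEGs in at least 1 comparison, Lgals3, Sqstm1 and Vmp1, are shown as their promoter sequences. They are RefSeq sequences of GRCm38.p6 in gene orientation, at chr14:47373610-47373859 (plus strand), chr11:50210821-50211070 (minus strand) and chr11:86683837-86684086 (minus strand), and capitals mark the motif matches described next.
Lgals3: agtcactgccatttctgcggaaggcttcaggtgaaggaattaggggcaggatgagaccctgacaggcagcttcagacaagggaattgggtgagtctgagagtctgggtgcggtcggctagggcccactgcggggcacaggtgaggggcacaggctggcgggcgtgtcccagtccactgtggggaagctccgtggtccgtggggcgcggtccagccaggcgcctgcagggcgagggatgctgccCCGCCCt
Sqstm1: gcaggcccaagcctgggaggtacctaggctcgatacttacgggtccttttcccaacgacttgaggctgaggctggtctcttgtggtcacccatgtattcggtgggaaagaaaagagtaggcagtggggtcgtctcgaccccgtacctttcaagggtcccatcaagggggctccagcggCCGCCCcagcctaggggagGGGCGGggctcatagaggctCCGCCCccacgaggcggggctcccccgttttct
Vmp1: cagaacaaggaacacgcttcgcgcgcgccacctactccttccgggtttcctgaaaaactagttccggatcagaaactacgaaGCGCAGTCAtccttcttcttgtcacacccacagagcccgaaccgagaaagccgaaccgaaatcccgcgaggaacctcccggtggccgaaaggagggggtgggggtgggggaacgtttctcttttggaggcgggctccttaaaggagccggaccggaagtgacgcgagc
The capitals are GC boxes (GGGCGG, on either strand) in Lgals3, where there was 1, and in Sqstm1, where there were 3, and in Vmp1 a single match of TGACNNNGC, the core of the antioxidant response element bound by NRF2.

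Windows of this kind were found for 27 of the 32 genes, not for Atg12, Atg16l1, Becn1, Pik3c3 and Rb1cc1, and both strands were searched for 6 motifs. The GC box was present in a window of 16 of the 27 genes and in 33.0% of 32536 distinct promoter windows of all genes. Genes of the set were counted once if any of their windows matched, whereas the shares are of windows. These measures are therefore not in like units. CACGTG, the core of the element bound by TFEB, the main transcription factor of lysosomal genes, was present in 4 (Atg3, Atg5, Atg7 and Rubcn) and in 6.04% of all windows. TGACNNNGC was present in 3 (Atg13, Tax1bp1 and Vmp1) and in 10.2% of all windows, and TTCNNNGAA, the STAT motif, in 4 (Gabarap, Gabarapl1, Nbr1 and Wipi1) and 7.04%. The TATA box (TATAAA) and the AP-1 motif (TGANTCA) were in no window of the 27 genes and in 12.3% and 6.73% of all windows. A match of letters is a description and not a binding site, and the absence of one says only that these letters are not within this window.

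The other 31 genes were not DEGs in either microrod group by edgeR, while 10 of the 32 had an unadjusted p below 0.05 in CaP against M0, 6 higher and 4 lower, beside 18% of all genes (8.51% higher and 9.45% lower). In the ULK1 complex, Rb1cc1 was measured at 8.46, 5.85 and 7.41 CPM in M0, at 4.76, 3.88 and 3.66 CPM with CaP and at 4.80, 5.22 and 5.47 CPM with SiO2 microrods, so that both microrod groups lay below M0 without overlap. Its log2 fold change was -0.82 (SE 0.21) for CaP and -0.50 (SE 0.21) for SiO2, with adjusted p-values by edgeR of 0.125 and 0.528. The other subunits gave values on either side of 0, with 0.60 for Atg13 and -0.34 for Ulk1 in CaP. Uvrag, which joins the class III PI3K complex at later steps, showed the same order as Rb1cc1, with 11.8 to 13.9 CPM in M0, 8.37 to 9.07 CPM with CaP and 7.68 to 10.1 CPM with SiO2. Its log2 fold changes were -0.56 and -0.46, not past the threshold (edgeR adjusted p = 0.164 and 0.490). The 6 further genes of this complex, among them Becn1, the core subunit Beclin 1, and Pik3c3, the lipid kinase, had log2 fold changes between -0.29 and 0.31 in both microrod comparisons.

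The widest values among the genes for membrane supply and PI3P binding were those of Atg9a, which encodes the membrane protein of the vesicles that seed the autophagosome. Atg9a gave 1.37, 0.911 and 1.97 CPM in M0 but 1.05, 3.55 and 6.13 CPM with CaP microrods, a log2 fold change of 1.39 with a 95% interval of 0.03 to 2.74. The CaP libraries thus differed among themselves by more than the group means did, with replicate 1 within the M0 range. Wipi1 and Wipi2, which encode PI3P-binding proteins, had log2 fold changes of 0.77 and 0.60 for CaP and 0.54 and 0.57 for SiO2, with the smallest edgeR adjusted p at 0.184. Vmp1, which encodes a scramblase of the endoplasmic reticulum needed to build autophagosomes, was at 88.8, 116 and 85.0 CPM with CaP, beside 101 to 168 CPM in M0, a log2 fold change of -0.53 (edgeR adjusted p = 0.231).

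Of the ATG8 genes, Gabarap was higher in each microrod library (106 to 136 CPM) than in each M0 library (59.8 to 103 CPM), with log2 fold changes of 0.48 for CaP and 0.53 for SiO2 that did not pass (edgeR adjusted p = 0.261 and 0.492). Map1lc3b lay at 352 to 480 CPM with CaP, at 450 to 517 CPM with SiO2 and at 452 to 561 CPM in M0, overlapping in both cases. In the ATG8 conjugation genes the log2 fold changes ran from -0.28 for Atg5 to 0.72 for Atg7, the E1-like enzyme, in CaP, with an edgeR adjusted p of at least 0.281. The other cargo receptor genes Nbr1, Optn, Tax1bp1 and Calcoco1, and Lgals8, which encodes galectin-8, another sensor of torn lysosomes, had an edgeR adjusted p of at least 0.474 in CaP and 0.699 in SiO2. Lgals8 was measured at 19.1 to 26.9 CPM in M0, 14.8 to 24.7 CPM with CaP and 21.5 to 28.1 CPM with SiO2, with overlap between all groups. The difference between the responses of Lgals3 and Lgals8 was not tested.

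**Figure D3:**
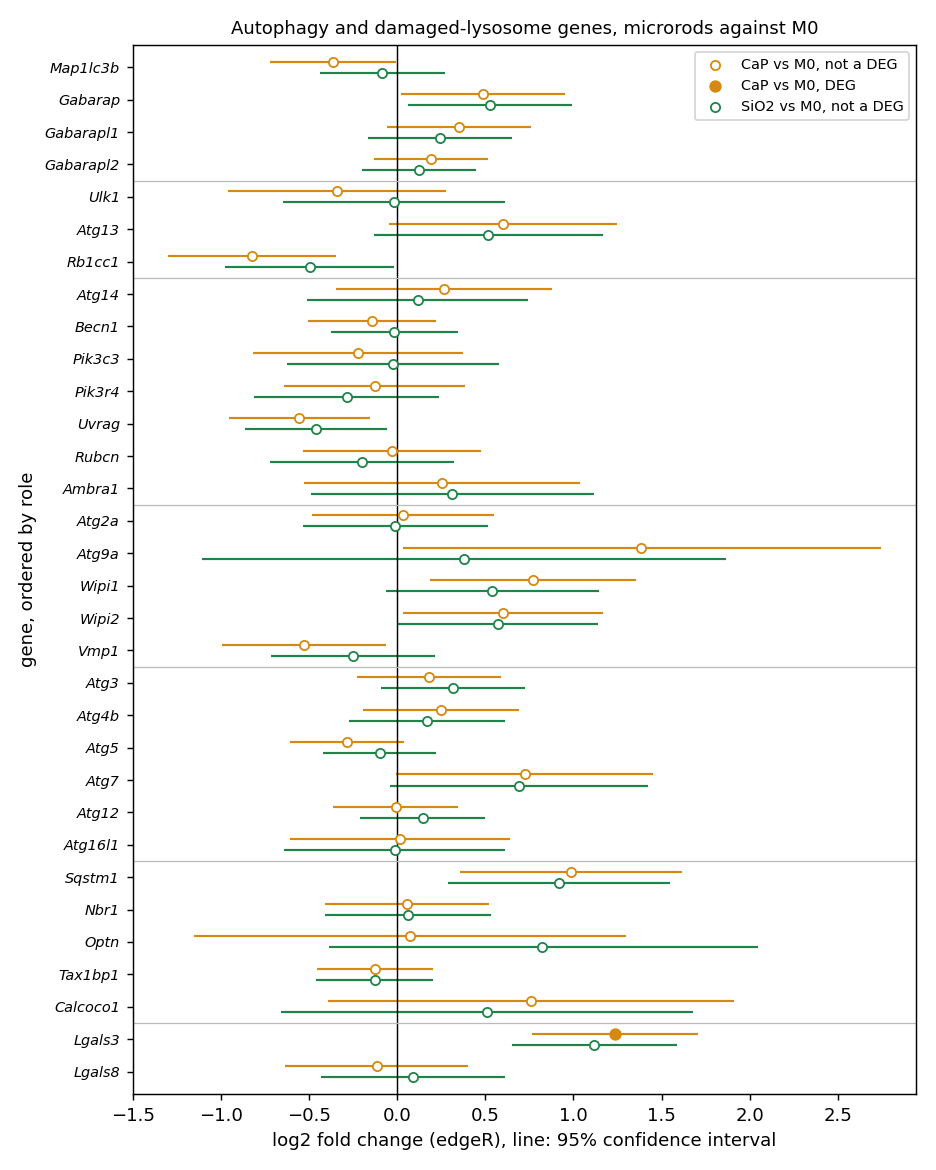
Log2 fold change (edgeR) of the 32 genes with CaP (orange) and SiO2 (green) microrods against M0, with 95% intervals, ordered by role; a filled point is a DEG. Lgals3 with CaP is the only filled point, Lgals3 and Sqstm1 have similar values in both groups, and the interval of Atg9a is among the widest.

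Libraries without overlap between the groups were found for 8 of the 32 genes in CaP against M0 (Lgals3, Sqstm1, Gabarap and Wipi1 higher, and Rb1cc1, Uvrag, Ulk1 and Atg5 lower), beside 17.4% of all genes (7.29% higher and 10.1% lower), and for 11 in SiO2 against M0 (9 higher, and Uvrag and Rb1cc1 lower), beside 18% of all genes (9.1% higher and 8.87% lower). The CaP and SiO2 comparisons share the M0 libraries, so a low or high M0 library enters both. M0 replicate 1 had the lowest value of its group in 19 of the 32 genes, beside 37.1% of all genes.

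Between the 2 microrod types, 0 of the 32 genes were DEGs by edgeR or DESeq2, beside 0.0241% of all genes by edgeR and 0.0863% by DESeq2, and 0 had an unadjusted p below 0.05, beside 1.87% of all genes. The log2 fold changes of CaP over SiO2 ran from -0.75 for Optn to 1.01 for Atg9a, with a median of 0.02. The 95% interval lay within 1 log2 unit on either side of 0 for 29 genes and within 0.5 for 5, so differences beyond 1 log2 unit lay outside the interval for most of the genes, and those beyond 0.5 for few. Lgals3 differed by 0.12 log2 units (95% interval -0.34 to 0.58) and Sqstm1 by 0.07 (-0.56 to 0.69). Libraries without overlap were found for 1 gene, Rb1cc1, at 3.66 to 4.76 CPM with CaP and 4.80 to 5.47 CPM with SiO2, beside 8.1% of all genes.

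In M1 cells, 2 of the 32 genes, Vmp1 and Sqstm1, rose against M0, and 0 fell by edgeR. Of all genes 14.1% were DEGs, 9.7% higher and 4.37% lower. In M2 cells 0 of the 32 were DEGs by edgeR, beside 4.13% of all genes (2% higher and 2.13% lower). There 6 had an unadjusted p below 0.05, beside 17.2% of all genes, and DESeq2 called 1, Lgals3, beside 5.08%. Between M1 and M2, 3 of the 32 were DEGs, Vmp1 and Sqstm1 higher and Lgals3 lower in M1, beside 16.1% of all genes (10.6% higher and 5.46% lower). These counts are 6.25% of the 32 genes in M1 against M0 and 9.38% in M1 against M2. The median log2 fold change of the 32 was 0.12 in M1 and 0.03 in M2, beside -0.01 and 0.07 for all genes.

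Vmp1 gave 147, 101 and 168 CPM in M0, 497, 269 and 357 CPM in M1 and 108, 159 and 84.6 CPM in M2. The M1 libraries lay above all other 12 libraries. Its log2 fold change was 1.43 in M1 over M0 (SE 0.27, edgeR adjusted p = 0.00308) and 1.68 in M1 over M2 (SE 0.28, edgeR adjusted p = 7.80e-04). Both calls were kept in all 15 alternative settings, with log2 fold changes of 1.17 to 1.62 and 1.42 to 1.95. In the M2 libraries Vmp1 overlapped M0 (log2 fold change -0.25).

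One exon of Vmp1, at chr11:86583865-86585451 (GRCm38.p6, minus strand), contains the hairpin of the microRNA miR-21a, at chr11:86584067-86584158 on the same strand. The mature sequence, printed because reads of its primary transcript and of Vmp1 fall on the same bases, has its seed (bases 2 to 8) in capitals.
mmu-miR-21a-5p: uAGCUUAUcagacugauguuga
The hairpin had 0 counts of its own in every library, so the Vmp1 level and that of the miR-21a primary transcript cannot be told apart in these counts.

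Sqstm1 was at 201, 290 and 331 CPM in M1, above all M0 libraries (90.9 to 167 CPM) and all M2 libraries (175, 102 and 129 CPM). The log2 fold change was 1.02 over M0 (SE 0.29, edgeR adjusted p = 0.0327) and 1.02 over M2 (SE 0.29, edgeR adjusted p = 0.0299). The first call was lost without M0 replicate 1 (adjusted p = 0.138), M0 replicate 3 (0.0601), M1 replicate 2 (0.0955) or M1 replicate 3 (0.130), and the second without M1 replicate 2 (0.0839), M1 replicate 3 (0.116), M2 replicate 2 (0.0891), M2 replicate 3 (0.0972) or the 3 libraries that stood apart (0.0735). The levels of Sqstm1 in M1, CaP and SiO2, with means of 274, 267 and 255 CPM, overlapped, whereas M2 (135 CPM) and M0 (135 CPM) did not reach those of SiO2.

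Lgals3 had 424, 677 and 737 CPM in M1 and 1820, 1081 and 1464 CPM in M2, without overlap between them. It was lower in M1 than in M2 with a log2 fold change of -1.25 (SE 0.25, edgeR adjusted p = 0.00395), a call kept in all 15 alternative settings. Every M2 library was above every M0 library (564 to 1037 CPM), with replicate 2 of M2 the nearest. The log2 fold change of M2 over M0 was 0.85 (SE 0.25), with an adjusted p of 0.0818 by edgeR and 0.0363 by DESeq2. Ordered by mean, Lgals3 ran from CaP over SiO2, M2 and M0 to M1, and of these neighbours only M2 and M0 did not overlap.

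**Figure D4:**
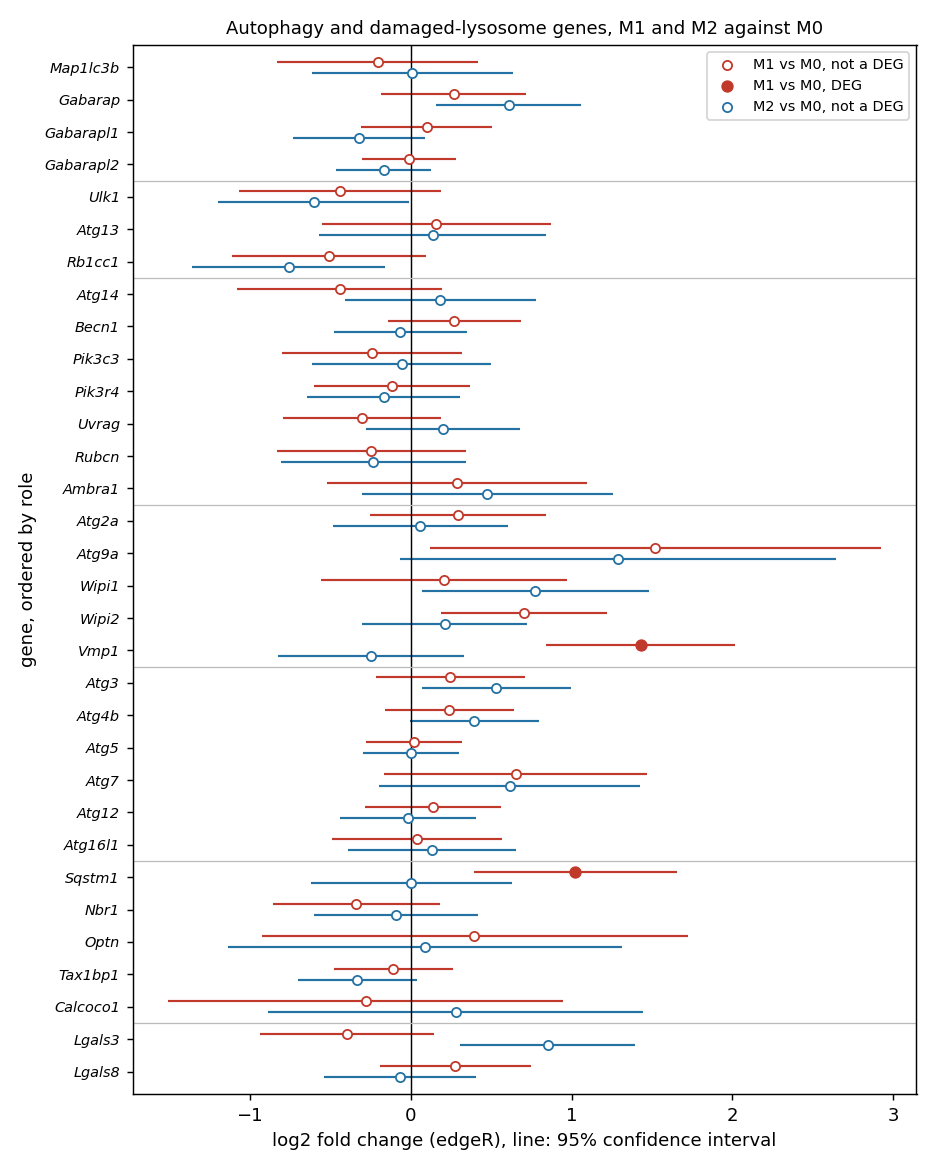
Log2 fold change (edgeR) of the 32 genes in M1 (red) and M2 (blue) against M0, with 95% intervals, ordered by role; a filled point is a DEG. The filled points are Vmp1 and Sqstm1 in M1, and no gene has one in M2.

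Among the genes without a call in M1 or M2, those for membrane supply and PI3P binding all had positive log2 fold changes in M1 over M0, from 0.21 for Wipi1 to 1.52 for Atg9a. Wipi2 was at 43.1, 60.8 and 54.0 CPM in M1, above its 23.8, 34.5 and 39.5 CPM in M0, and missed the threshold with a log2 fold change of 0.70 (edgeR adjusted p = 0.0678), although edgeR called it without the 3 libraries that stood apart and with a replicate block. Atg9a was at 2.75, 3.90 and 5.05 CPM in M1, above its M0 values, but with a standard error of 0.65 (edgeR adjusted p = 0.145), and it was called without a filter and with only the 6 libraries compared. In M2, Gabarap was at 133, 105 and 149 CPM, above M0 without overlap, at a log2 fold change of 0.61 (edgeR adjusted p = 0.135), and Ulk1 at 1.23 to 1.84 CPM was below M0 (2.27 to 2.67 CPM), at -0.60 (0.281). The 6 ATG8 conjugation genes had log2 fold changes from 0.02 to 0.65 in M1 and from -0.02 to 0.61 in M2, with edgeR adjusted p-values of at least 0.289 and 0.215. The levels of Atg5, which joins Atg12 in the conjugate that lipidates LC3, were the steadiest of all 32, at 31.7 to 44.5 CPM over the 15 libraries, with an SD within groups of 0.11 log2 units.

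Libraries of 1 group differed most in Atg9a, Optn, Calcoco1 and Atg7, with SDs within groups of 0.96, 0.83, 0.81 and 0.54 log2 units. The order of the libraries within a group recurred in many of the 32 genes. CaP replicate 1 held the lowest value of its group in 26 of the 32 genes, beside 41.5% of all genes, and CaP replicate 2 the highest in 21, beside 37.4%. SiO2 replicate 3 was lowest in 21 genes (30.6% of all genes), and M0 replicate 3 was highest in 17 (32.5%). Calcoco1, a cargo receptor gene, had 3.77 CPM in CaP replicate 1 and 14.9 and 15.4 CPM in the others, and 3.55 CPM in M2 replicate 2 beside 10.3 and 9.22 CPM. CaP replicate 1 was the deepest library of its group with 50729211 counts, and its mitochondrial share was 1.51%, beside 1.45% and 1.21% in replicates 2 and 3, but their part in this order was not tested.

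**Figure D5:**
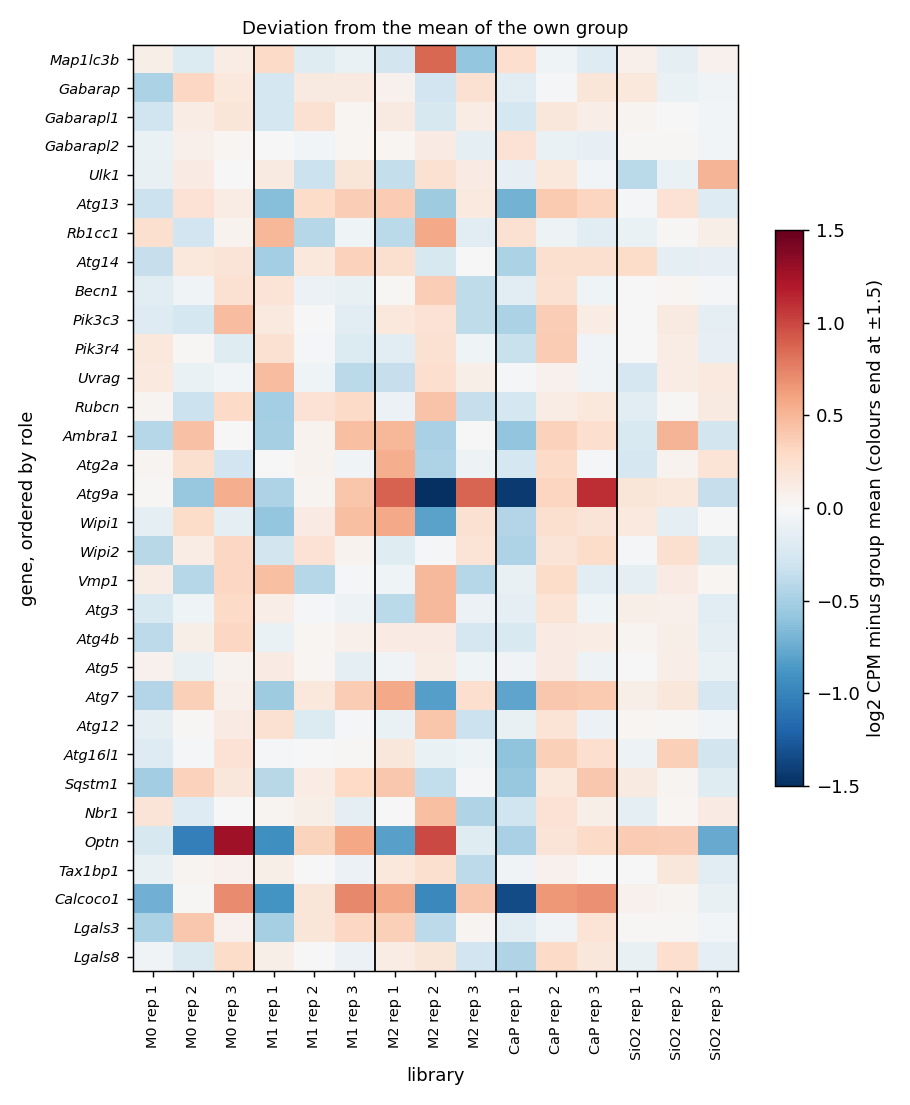
Deviation of each library from the mean of its own group, in log2 CPM, for the 32 genes (rows, by role) and 15 libraries (columns, by group); red is above and blue below the group mean. The column of CaP replicate 1 is mostly blue, in 26 genes the lowest of its group, and the strongest colours are in Atg9a, Optn and Calcoco1.

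The strand setting of the authors' counting is not given in the sources used here, and the exons of 13 of the 32 genes overlap those of another gene in the annotation. For 6 the partner was protein-coding on the opposite strand. Ankzf1 (7.71 to 17.8 CPM) was above the level of its partner Atg9a, and Fyttd1 (26.3 to 46.8 CPM) above that of Rubcn, an inhibitor of the class III PI3K complex (3.01 to 6.37 CPM), so the origin of the reads counted for Atg9a and Rubcn is uncertain. Heatr1, the partner of Lgals8, was at 7.95 to 18.2 CPM, comparable with the 14.8 to 28.7 CPM of Lgals8, whose reads are uncertain in the same way. Mrnip, the partner of Sqstm1, was at 7.02 to 12.6 CPM and thus far below Sqstm1.

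Genes from other steps of the pathway, from 5 lists, were measured beside the 32. With CaP or SiO2 microrods, and between them, 0 of the 65 tested were DEGs by edgeR, with list medians of -0.11 to 0.23 (CaP against M0), 0.01 to 0.26 (SiO2 against M0) and -0.12 to 0.12 (CaP against SiO2), while 16, 8 and 1 of the 65 had an unadjusted p below 0.05, beside 18%, 9.27% and 1.87% of all genes. DESeq2 called 2 in CaP against M0, Ddit4 higher and Foxo3 lower, beside 3.87% of all genes, and 0 in the others. In M1 against M0, 4 of 9 other selective receptors fell and none rose. These were Ccpg1, a receptor of the endoplasmic reticulum, Retreg1, likewise for the reticulum, and Bnip3 and Bnip3l, receptors of mitochondria, with log2 fold changes of -1.58, -1.10, -1.32 and -0.97. Bnip3 averaged 714 ± 73.9 CPM in M0 and 286 ± 25.0 CPM in M1 (SD, n = 3). Their list had a median of -0.40, beside -0.01 for all genes, of which 14.1% were DEGs.

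Of 19 genes for lysosome repair and lysophagy, 2 were DEGs in M1 against M0. Beside this and the other lists of this paragraph, 14.1% of all genes were DEGs (9.7% higher and 4.37% lower). Lgals9, which encodes galectin-9, another galectin at torn lysosomes, rose from 9.14 ± 2.44 to 52.0 ± 14.6 CPM (SD, n = 3; log2 fold change 2.52), and Trim16, a ubiquitin ligase that binds galectin-3, fell by 1.13 on the log2 scale. The list median was -0.06. Beside it, the log2 fold changes of Lgals8 and Lgals3 in M1 over M0 were 0.28 and -0.40, neither past the threshold. Among 13 TFEB family and nutrient regulator genes, 5 were DEGs, 3 higher and 2 lower, beside 14.1% of all genes (list median 0.01). Sesn2, a stress-induced inhibitor of mTORC1, and Prkaa1, the AMPK catalytic subunit, rose by 1.22 and 0.88 on the log2 scale, and Foxo3, a transcription factor of autophagy genes, and Fnip1, a folliculin partner, fell by 1.30 and 0.93. The SNARE gene Snap29 was the 1 DEG among 10 genes of autophagosome fusion, at a log2 fold change of 0.95 (list median 0.07), and 0 of 14 other core autophagy genes were DEGs, with a list median of 0.14. Of these 14, Wdr45 and Tmem41b, had an unadjusted p below 0.05, beside 27.7% of all genes, and DESeq2 called Wdr45.

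In M2 against M0, 4 of the 65 list genes tested were DEGs, beside 4.13% of all genes. Retreg1 fell by 1.64 and Mitf, a relative of TFEB, by 1.12 on the log2 scale, whereas Lgals1, another galectin gene, rose by 1.03 and Ddit4, a stress-induced mTORC1 inhibitor, by 2.24. Lgals1 averaged 736 ± 92.0 CPM in M0 and 1506 ± 613 CPM in M2 (SD, n = 3). In M1 against M2, 11 of the 65 were DEGs, beside 16.1% of all genes, with 3 lower of the 9 other selective receptors (Bnip3 -1.56, Bnip3l -1.09 and Tex264 -0.74), 3 higher and 2 lower of 19 lysosome repair genes, and 3 higher of 13 TFEB family and nutrient regulator genes (Mitf 1.00, Mtor 0.99 and Prkaa1 0.94). Of the lysosome repair genes, Lgals9 differed by 2.53, Trim16 by -1.98, Lgals1 by -1.10 and Lrrk2, a kinase recruited to stressed lysosomes, by 0.85. The list medians lay between -0.09 and 0.23 in M1 against M2 and between -0.06 and 0.17 in M2 against M0, beside -0.04 and 0.07 for all genes. All log2 fold changes of list genes were fitted with edgeR across all genes tested.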

How the data were processed

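Smart-seq2 libraries of poly(A) RNA from 15 wells (5 groups, 3 libraries each) were sequenced as paired-end reads. The authors processed them with nf-core/rnaseq 3.14.0 (STAR and Salmon; Ensembl 114; GRCm39 per the labels) and deposited 1 table of unnormalized whole-number counts for 78317 gene identifiers, which may be rounded Salmon estimates. Symbols, transcript lengths (median of coding transcripts) and exon overlaps were taken from GENCODE M21 (GRCm38), which named 51487 identifiers, and promoter and microRNA sequences and their coordinates from RefSeq GRCm38.p6, another build than the authors used.

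Counts were filtered with filterByExpr, scaled with TMM and compared with the quasi-likelihood test of edgeR 4.0.16 in R 4.3.3, with Benjamini-Hochberg adjustment over all genes tested. M1 and M2 were compared in a model of all 15 libraries (16654 genes) and the microrods in one of 9 libraries (16621 genes), with group as the only term. A DEG had an adjusted p below 0.05 and a log2 fold change beyond 0.5 in either direction. CPM values are scaled over all 15 libraries, with the SD over 3, except those of partner genes with overlapping exons, which are not scaled. An exact two-sided permutation test of 3 against 3 libraries cannot go below 0.1 and was not used. Reads were amplified and carry no molecular identifiers, so limits from depth cover counting error only. No 2 libraries of the same group agreed within sampling noise. The fit was tested on simulated counts.

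Genes that were DEGs in any comparison were described library by library and the rest by range and counts, and up to 4 DEGs were named per pathway list and comparison. Other genes given by value, or named beside a small count, were chosen after their values were seen. Members and lists were chosen with earlier results of these data known. The lists were other core autophagy, autophagosome fusion, other selective receptors, lysosome repair and lysophagy, TFEB family and nutrient regulators, and markers of macrophages, epithelium, fibroblasts, lymphocytes and stimuli. DEG calls of the autophagy and damaged-lysosome response genes, and DEG counts over all genes, were recomputed under alternative settings. These were DESeq2 1.42.0, its size factors, no filter, a minimum of 10 counts in every library and no limit on the fold change. Further settings were other libraries in the model, a replicate block, leaving out each library and leaving out the 3 that stood apart. Calls of genes in the lists were recomputed with DESeq2 only. The legacy quasi-likelihood of edgeR was added after seeing the data.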

Additional observations from a re-analysis of the deposited data

How the results depend on the processing

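Of the calls of single genes, Vmp1 in both comparisons and Lgals3 in M1 against M2 were kept in all 15 alternatives, Sqstm1 in 10 (M1 against M0) and 8 (M1 against M2), and Lgals3 in CaP against M0 in 8, with 0 reversals. In CaP against M0 the number of the 32 genes that were DEGs was 1, but 3 with DESeq2, and 0 with the replicate block, with the legacy quasi-likelihood and without the 3 libraries that stood apart, and it ranged from 0 to 6 when single libraries were left out (6 without CaP replicate 1). In M2 against M0 it was 0, but 1 with DESeq2 (Lgals3), 2 without a filter (Atg9a and Lgals3), and 0 to 2 without single libraries (1 without M0 replicate 2, and Lgals3 and Rb1cc1 without M2 replicate 2). In SiO2 against M0 it was 0, but 1 with DESeq2 and 1 without a filter (Lgals3 in both). In M1 against M0 it was 2, but 3 without a filter (with Atg9a), and 3 with the replicate block and without the 3 libraries that stood apart (both with Wipi2), Atg9a took the place of Sqstm1 with only the 6 libraries compared, and it was 1 to 2 without single libraries. In M1 against M2 it was 3, but 2 (without Sqstm1) with only the 6 libraries, with the replicate block and without the 3 libraries, and 2 to 4 without single libraries, with Uvrag added without M1 replicate 1 and Wipi1 in place of Sqstm1 without M2 replicate 2. The cause of these shifts was not tested. No alternative changed the 0 of CaP against SiO2. Only the 6 libraries compared gave Sqstm1 an edgeR adjusted p of 0.0548 (M1 against M0) and 0.0637 (M1 against M2), and the legacy quasi-likelihood gave Lgals3 0.0595 in CaP against M0. No pairing by replicate number was seen, as 14 of 30 same-numbered pairs had deviations correlated above 0.1 (from -0.70 to 0.60). Of the 15 libraries, 4 correlated best with their own number. Deviations from a mean of 3 libraries depend on each other, so a weaker shared effect could go unseen. With the replicate block, Lgals3 in CaP against M0 had an edgeR adjusted p of 0.0872 and Sqstm1 in M1 against M2 one of 0.0508. Over all genes, the number of DEGs in CaP against M0 ran from 13 to 743 across alternatives, with 68 as reported. In SiO2 against M0 it ran from 0 to 123. For M1 against M0 the range was 1511 to 3610 (2342 as reported), and for M2 against M0 98 to 1361 (687 as reported). For M1 against M2 it was 1377 to 5264 (2679 as reported). The counts over all genes thus shifted with the settings too. With 3 libraries per group the median width of the 95% interval of the 32 genes was 1.02 log2 units in CaP against M0, which limits the size of change that could be detected.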
